A study of Rattus norvegicus with 6 samples.

Results

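Matrix metalloproteinases and their inhibitor Timp1 were followed in cardiac fibroblasts as 6 genes, chosen by Ensembl rat gene ID out of 27108 rows of the count table. The IDs were ENSRNOG00000016695 for Mmp2, ENSRNOG00000017539 for Mmp9, ENSRNOG00000032626 for Mmp3, ENSRNOG00000008478 for Mmp13, ENSRNOG00000010947 for Mmp14 and ENSRNOG00000010208 for Timp1, and all 6 rows were present. The table holds no symbols, and the reference table pairs 0 of its rows with one, so these names rest on the IDs as listed for this work. The fibroblasts came from the ventricles of neonatal rats and were kept for 48 h on glass that carried a coat of fibronectin only (UT, 3 libraries) or fibronectin together with transthyretin fibrils (TTR, 3 libraries). Transthyretin is a plasma carrier protein that forms amyloid deposits in the heart. The strain, any mutation of the transthyretin and the separation of the replicates by cell isolation are not given in the labels, so p-values measure the spread between these libraries, which may be technical. Both groups share the glass, the fibronectin and the time.

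Matrix metalloproteinases are zinc enzymes that cut collagens and other matrix proteins, and fibroblasts are a main source of several of them in the heart. They are made as inactive proenzymes and are held in check by tissue inhibitors such as Timp1, so a transcript level is not a measure of enzyme activity. Members differ in substrate and in regulation: gelatinases act on denatured collagen, collagenases on intact fibrils, stromelysins on a wide range of matrix proteins and on other proenzymes, and membrane-type enzymes at the cell surface.

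Mmp9 was the member whose levels differed most between the substrates, with higher values on fibrils in 3 of 3 libraries, while Mmp2, Mmp14 and Timp1 stood at similar levels in both groups. Mmp3 and Mmp13 were close to or at 0 counts on both. None of the 4 members tested passed the main test, edgeR's quasi-likelihood test, adjusted by Benjamini-Hochberg over 12049 genes and read at 0.05, which called 0.0083% of all tested genes as different in either direction. At an unadjusted p under 0.05 the same test held 1 member, Mmp9, against 2.37% of all tested genes. Mmp9 entered that test through its TTR libraries alone, so its p there is given as description. DESeq2 called the same single member as higher on TTR, where it called 0.251% of genes with a defined adjusted p in that direction, and limma-voom called 0 members (0.0083% of all tested genes).

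Libraries held between 6574199 and 11774729 counts, the largest being TTR replicate 1. Levels are counts scaled to CPM (per 1000000 counts) on the library size adjusted by TMM factors, which lay between 0.981 and 1.02. Of the 6 genes, 4 passed the filter on low counts (edgeR's filterByExpr, minimum count of 10), and 3 of these had at least 10 counts in every library. Across the tested genes the deviations from the group means were correlated between UT replicate 3 and TTR replicate 1 (r = 0.58), UT replicate 1 and TTR replicate 3 (r = 0.52) and UT replicate 2 and TTR replicate 2 (r = 0.44), and were negative for the other cross-group pairs, as a description over genes, which are not independent replicates. Centring on the group means leaves each library with both positive and negative cross-group correlations, so these signs are partly set by the centring. Markers of fibroblasts or of other heart cells were not analysed here, because no row carries a symbol. In these bulk libraries a change in the share of cells of one type and a change in RNA per cell cannot be told apart. Transcript lengths were not used here, so levels are compared between libraries and not between genes.

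**Figure D1:**
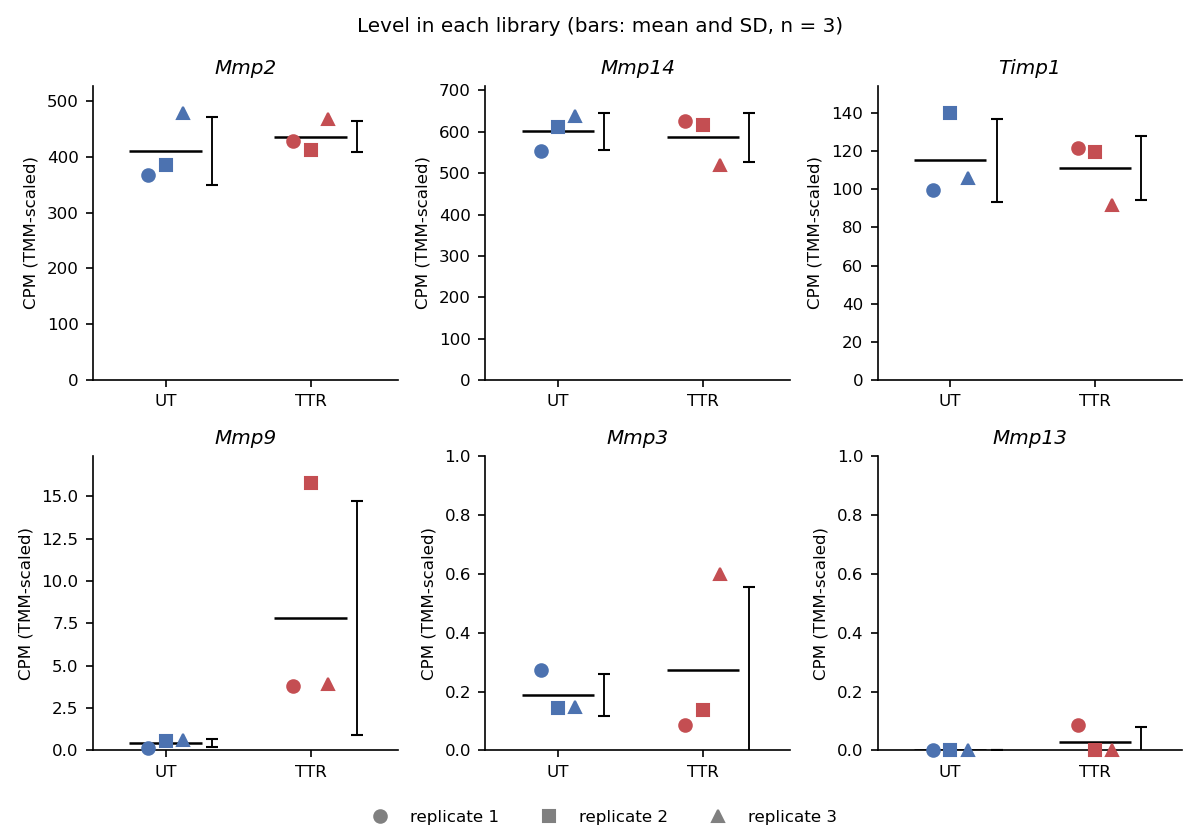
Level of each gene in CPM (vertical axis, linear from 0, own scale per panel) in the 3 UT and 3 TTR libraries, with symbols marking the replicate number, a line at the mean and a bar of 1 SD. Only the Mmp9 panel shows groups that do not overlap; its TTR replicate 2 stands at 15.8 CPM and the other two TTR libraries at 3.79 and 3.90, and the Mmp3 and Mmp13 panels stay under 1 CPM.

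The gelatinases were the first pair compared. Mmp9, gelatinase B, was counted 1, 4 and 4 times in the UT libraries and 44, 115 and 26 times in the TTR libraries, in replicate order. In CPM this was 0.136, 0.580 and 0.592 on UT and 3.79, 15.8 and 3.90 on TTR. All TTR libraries therefore lay above all UT libraries, and the lowest TTR library was 6.40-fold above the highest UT library. Among tested genes, 3.75% had every TTR library above every UT library. The share was 4.92% among the 2216 tested genes with a mean CPM within 2-fold of that of Mmp9. TTR replicate 2 stood apart within its group, at 4.10-fold the mean of the other two TTR libraries.

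Mmp9 averaged 0.436 ± 0.260 CPM in UT against 7.82 ± 6.88 CPM in TTR libraries (SD, n = 3). In the edgeR fit the log2 difference was 4.12 (SE 0.78), a 17.4-fold higher level on TTR with a 95% interval from 5.12- to 58.9-fold and an adjusted p of 0.271 (unadjusted p = 0.000495). Only 4 other tested genes had a larger log2 difference, and by p Mmp9 ranked 22nd of 12049. The gene passed the filter through its TTR libraries alone, since no UT library reached 10 counts. A gene this low on UT could be tested only with a higher level on TTR. Its ranks and its separation of the groups were thus partly set by the filter and are given as description. The fold, interval and p of this fit are likewise conditional on passing the filter and are given as description. Summed over libraries, 9 counts among 21066578 on UT stood against 185 among 25636634 on TTR, a 16.9-fold ratio per count with an exact 95% interval from 8.71 to 37.5 that covers counting error only.

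The tools parted on Mmp9. DESeq2 placed its log2 difference at 4.17 (SE 0.74), adjusted p 1.85e-05, the 11th smallest p in that fit, whereas limma-voom gave 3.73 (SE 0.90) with an adjusted p of 0.770. The edgeR test without the low count filter, which called 0.183% of its genes as higher on TTR, also called it (adjusted p = 0.00131), as did the edgeR likelihood ratio test (adjusted p = 2.91e-05), which was added after the data were seen. Over all 16 alternatives to the main fit the adjusted p ran from 1.85e-05 to 1.00, with 3 of them under the threshold, and the log2 difference stayed between 3.11 and 4.47. The direction could hardly have turned, since the groups do not overlap.

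The TTR libraries were spread widely for this gene. The biological coefficient of variation that edgeR fitted to Mmp9 was 0.495, against 0.258 for the trend at its level. Of the 2216 tested genes whose mean CPM lay within 2-fold of that of Mmp9, 97.2% had a lower coefficient. Without TTR replicate 2 the edgeR log2 difference was 3.11, which is 8.64-fold, with an adjusted p of 0.253. DESeq2 without that library gave 3.16 with an adjusted p of 0.0987 and so no longer called the gene. Leaving out each of the other 5 libraries kept the DESeq2 call, with adjusted p between 5.21e-06 and 0.00432. The plot of Mmp9 under each setting shows this division.

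**Figure D2:**
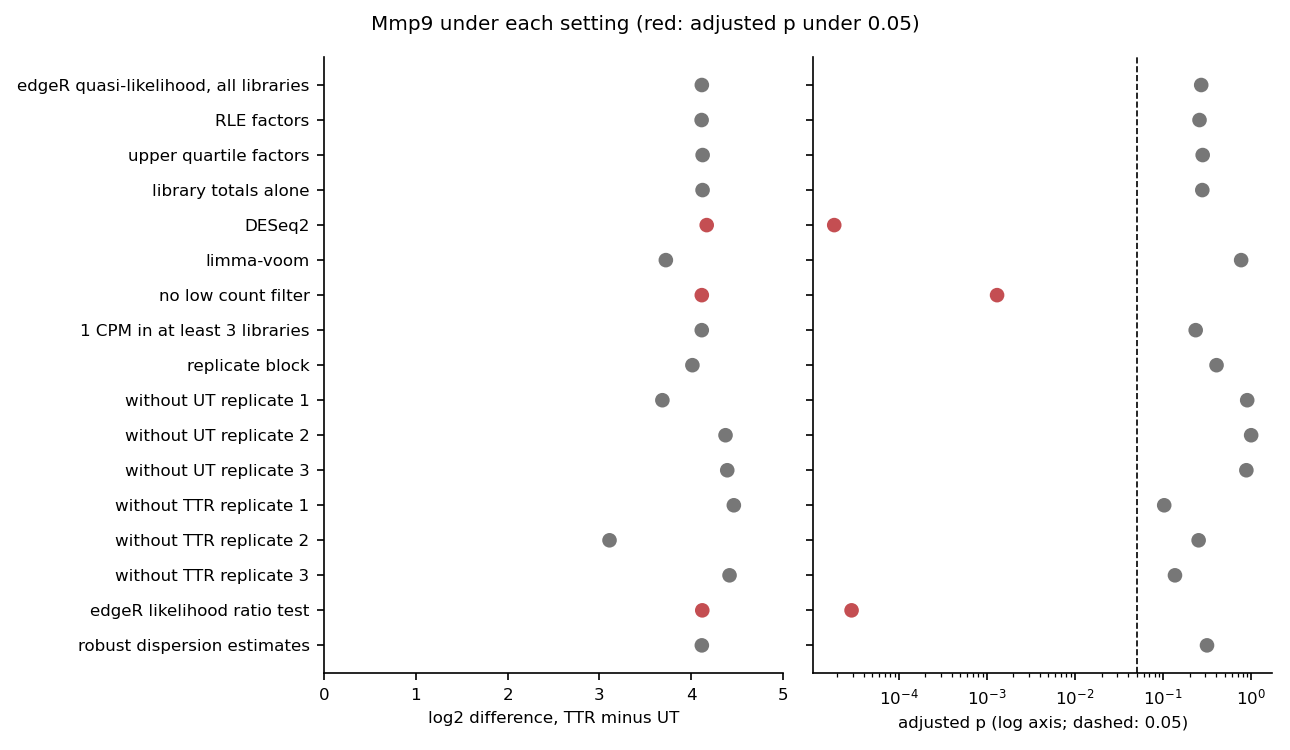
Mmp9 under the main edgeR fit and 16 alternatives: log2 difference of TTR minus UT (left, linear axis) and adjusted p (right, log axis, dashed line at 0.05). All estimates lie between 3.11 and 4.47, and the 3 red points with an adjusted p under 0.05 are DESeq2, edgeR without a low count filter and the edgeR likelihood ratio test.

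Mmp2, gelatinase A, is the gelatinase that fibroblasts make without stimulation. It was counted 2696, 2651 and 3236 times on UT and 4975, 3010 and 3119 times on TTR. In CPM the UT libraries stood at 367, 385 and 479 and the TTR libraries at 429, 413 and 467. The TTR values lay inside the range of the UT values. Its means were 410 ± 60.2 CPM in UT and 436 ± 28.3 CPM in TTR libraries (SD, n = 3). edgeR put the log2 difference at 0.088 (SE 0.13, adjusted p = 0.999). The 95% interval for the fold ran from 0.867 to 1.30, whereas that of Mmp9 began at 5.12-fold. Both intervals are before any adjustment for the number of genes, and Mmp9 passed the filter through its TTR libraries alone. A test of the difference between the 2 genes was not made.

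Mmp14, the membrane-type metalloproteinase that activates the proenzyme of Mmp2 at the cell surface, was counted 4057, 4211 and 4317 times on UT and 7270, 4491 and 3460 times on TTR. These counts correspond to 552, 611 and 639 CPM on UT and 626, 615 and 519 CPM on TTR. The groups overlapped, with TTR replicate 3 the lowest of all 6 libraries and UT replicate 3 the highest. The UT mean was 601 ± 44.2 CPM and the TTR mean 587 ± 59.3 CPM (SD, n = 3), with a log2 difference of -0.034 (SE 0.12), a 95% fold interval from 0.810 to 1.18 and an edgeR adjusted p of 0.999.

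Timp1, a secreted inhibitor that binds the active site of most metalloproteinases, also binds the proenzyme of Mmp9 and is a weak inhibitor of Mmp14. Its counts were 730, 966 and 715 on UT and 1415, 871 and 611 on TTR. The levels were 99.4, 140 and 106 CPM on UT and 122, 119 and 91.6 CPM on TTR. UT replicate 2 was the highest library and TTR replicate 3 the lowest, and the groups overlapped. The UT mean of 115 ± 21.9 CPM and the TTR mean of 111 ± 16.8 CPM (SD, n = 3) gave a log2 difference of -0.052 (SE 0.17), a 95% fold interval from 0.744 to 1.25 and an edgeR adjusted p of 0.999. In the reference table the span of Timp1 overlaps that of Syn1, the gene of a synaptic vesicle protein. The counts were made on the build rn6 with an annotation that is not given and may differ from that table. Whether exons of Timp1 and Syn1 overlap, and so whether reads could be shared, was not tested. The direction of the small differences of Timp1 and Mmp14 turned when single libraries were left out, as given in the closing section.

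For Mmp2, Mmp14 and Timp1 the 95% interval thus stayed inside 2-fold up or down, which held for 86.5% of all tested genes. The median absolute log2 difference of the whole tested table was 0.099, close to the 0.088 of Mmp2 and above the sizes for Mmp14 and Timp1.

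**Figure D3:**
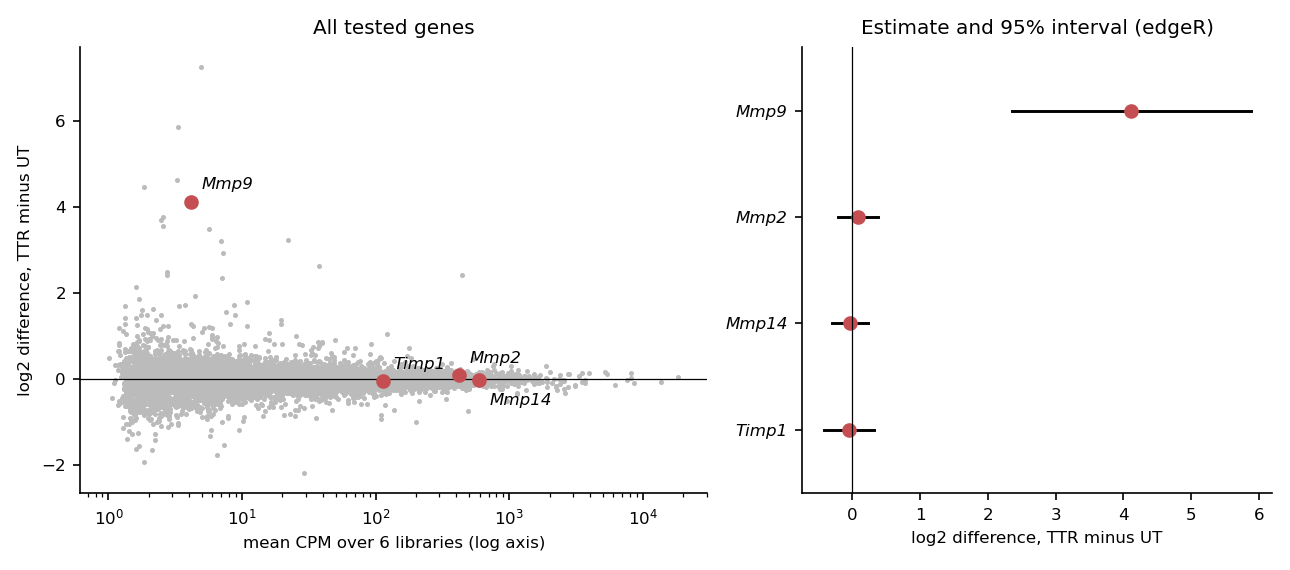
Left, log2 difference of TTR minus UT (vertical axis) against mean CPM over 6 libraries (log axis) for the 12049 tested genes in grey, with the 4 tested members in red. Right, the edgeR estimate of each with its 95% interval: those of Timp1, Mmp14 and Mmp2 cross 0, and that of Mmp9 runs from 2.35 to 5.88 before any adjustment for the number of genes tested.

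Mmp3, stromelysin-1, and Mmp13, the main interstitial collagenase of rodents, were at the limit of detection. Mmp3 had 2, 1 and 1 counts on UT and 1, 1 and 4 on TTR. Summed, 4 counts on UT gave 0.190 per 1000000 counts (exact Poisson 95% interval 0.0517 to 0.486, counting error only) and 6 counts on TTR gave 0.234 per 1000000 (0.0859 to 0.509). The intervals overlap, and no fold is given at these counts. Mmp13 had 0 counts in all 3 UT libraries and in TTR replicates 2 and 3, and 1 count in TTR replicate 1, the most deeply sequenced. With the limit for a count of 0 set at 3 counts over the group, the UT libraries allow up to 0.142 per 1000000 counts (0.175 as the upper bound of the exact interval used for Mmp3). The single TTR count gives 0.0390 per 1000000, with an exact interval up to 0.217. Both genes missed the filter. In edgeR without the filter neither passed, each with an adjusted p of 0.999, and a difference between the substrates was not detectable at this depth.

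In the reference annotation Mmp3 and Mmp13 lie in one cluster of metalloproteinase genes on chromosome 8, with Mmp12 and Mmp1b between them, and Mmp1, Mmp10, Mmp8, Mmp27, Mmp20 and Mmp7 following beyond Mmp3. Promoter windows of RefSeq (build GRCr8, 250 bases before to 50 after the start of the gene) were found for 3 of the 6 members, Mmp3, Mmp13 and Timp1, which sets the near-silent pair beside an expressed inhibitor. They are shown 5′ to 3′ on the strand of the gene, at chr8:12925031-12925330 (plus strand) for Mmp3, chr8:12782579-12782878 (plus strand) for Mmp13 and chrX:3771073-3771372 (minus strand) for Timp1. Capitals mark matches on either strand to TGANTCA (the AP-1 motif), AGGAAG (the PEA3 motif of Ets factors) or TATAAA (the TATA box), none of which overlap each other here.
Mmp3: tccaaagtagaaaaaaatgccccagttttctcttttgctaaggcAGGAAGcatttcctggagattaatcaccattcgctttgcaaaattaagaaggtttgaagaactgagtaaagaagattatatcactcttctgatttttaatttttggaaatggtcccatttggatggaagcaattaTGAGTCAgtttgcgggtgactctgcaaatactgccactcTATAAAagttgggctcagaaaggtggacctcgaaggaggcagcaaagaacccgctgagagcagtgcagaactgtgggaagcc
Mmp13: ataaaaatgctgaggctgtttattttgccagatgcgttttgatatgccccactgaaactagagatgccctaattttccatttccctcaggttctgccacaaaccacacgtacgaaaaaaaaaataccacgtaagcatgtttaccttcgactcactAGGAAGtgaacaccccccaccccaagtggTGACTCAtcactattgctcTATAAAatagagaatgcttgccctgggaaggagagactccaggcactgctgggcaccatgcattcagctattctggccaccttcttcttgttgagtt
Timp1: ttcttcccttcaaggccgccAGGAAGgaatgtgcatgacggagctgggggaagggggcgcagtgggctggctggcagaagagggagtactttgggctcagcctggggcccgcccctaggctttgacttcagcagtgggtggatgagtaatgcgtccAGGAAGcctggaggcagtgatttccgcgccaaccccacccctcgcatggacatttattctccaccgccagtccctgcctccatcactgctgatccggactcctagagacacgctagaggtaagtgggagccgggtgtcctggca

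The windows of Mmp3 and Mmp13 had the same 3 motifs in the same order. The AP-1 match began 71 bases before the start in Mmp3, where it reads TGAGTCA, and 66 bases before it in Mmp13, where it reads TGACTCA. Such a match was present in 7.33% of the 33469 promoter windows of this length. The TATAAA match began 32 bases before the start in Mmp3 and 47 in Mmp13, a motif found in 14.2% of windows. AGGAAG began 206 bases before the start in Mmp3 and 95 in Mmp13, and in Timp1 at 230 and 94 bases, and was present in 34.5% of windows. In the Timp1 window neither TGANTCA nor TATAAA was matched. Only exact letters were searched, so a near match to TGANTCA, such as the tgagtaa in the windows of Timp1 and Mmp3, was not marked. The lack of a match is therefore not the lack of an AP-1 site. The NF-kB motif, searched in the same way and found in 1.53% of windows, was matched in none of the 3. These matches are letters in a window and were not tied to the counts.

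Ratios within a library are free of the scaling between libraries and were used to describe the counts of these genes relative to each other, with no test. They hold no inhibitor other than Timp1 and are not a measure of the balance of inhibitor and enzymes. Timp1 had 0.271, 0.364 and 0.221 counts per Mmp2 count on UT and 0.284, 0.289 and 0.196 on TTR. Per Mmp14 count the Timp1 values were 0.180, 0.229 and 0.166 on UT and 0.195, 0.194 and 0.177 on TTR. Neither ratio separated the groups, and the spread of Timp1 per Mmp14 was 0.0335 on UT and 0.0102 on TTR (SD, n = 3).

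Against the summed counts of the 5 metalloproteinases, Timp1 stood at 0.114 ± 0.0237 on UT and 0.107 ± 0.0129 in TTR libraries (SD, n = 3). Its log2 difference of -0.080 was smaller in size than the SD of the log2 ratio in either group (0.29 and 0.18). Mmp14 and Mmp2 make up nearly all of that sum, so Mmp9 hardly enters it. Mmp14 had 1.50, 1.59 and 1.33 counts per Mmp2 count on UT and 1.46, 1.49 and 1.11 on TTR. In both groups replicate 3 was the lowest for this ratio, and TTR replicate 3 was the lowest of all 6 libraries for each of these ratios except Timp1 per Mmp14, where UT replicate 3 was lower.

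**Figure D4:**
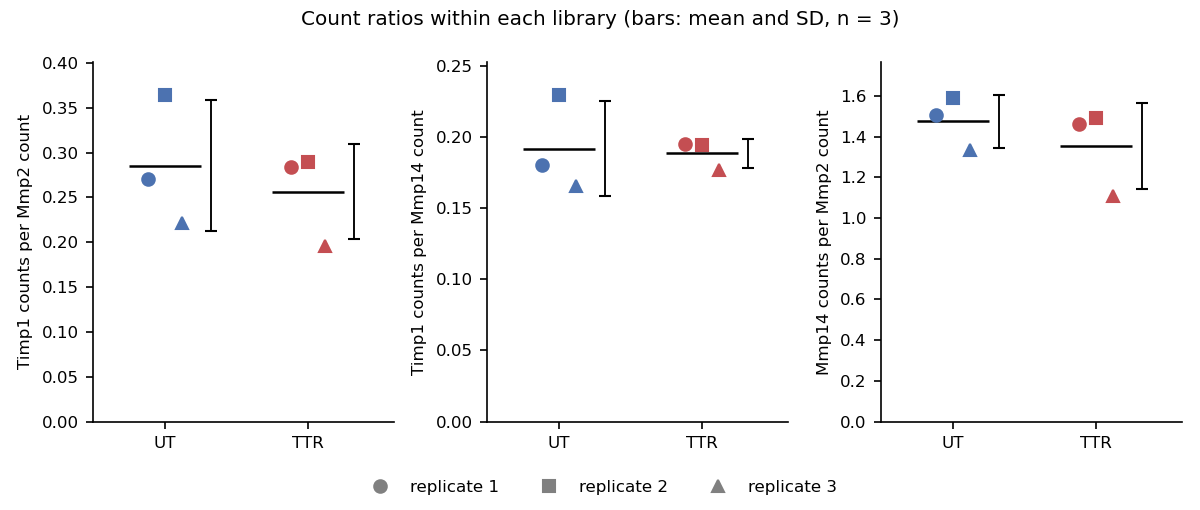
Counts of one gene per count of another within each library (vertical axes, linear from 0), for 3 UT and 3 TTR libraries, with a line at the mean and a bar of 1 SD. The groups overlap in all 3 panels, and TTR replicate 3 is the lowest TTR library in each, at 0.196, 0.177 and 1.11.

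The abundant members did not share one profile over the 6 libraries. Likeness was measured as the root mean square difference of log2 CPM after centring each gene on its own mean, where a smaller value is more alike. Mmp14 and Timp1 were 0.15 apart, Mmp14 and Mmp2 0.17, and Mmp2 and Timp1 0.29. TTR replicate 3 was the lowest library for Mmp14 and Timp1 and the second highest for Mmp2, and UT replicate 1 was among the lowest 2 libraries for all 3 genes. Many other genes lay nearer: Mmp14 was the 1070th nearest tested gene to Timp1, and Mmp2 the 4264th nearest to Mmp14. The single nearest gene was ENSRNOG00000004494 for Mmp14, at 0.021, and ENSRNOG00000019746 for Mmp2, at 0.029.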

How the data were processed

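RNA sequencing measured gene expression in 6 libraries, 3 per substrate. The authors deposited raw counts per gene, in whole numbers without normalization. STAR, featureCounts, edgeR and the build rn6 are named, without versions, per the submitters' processing notes. Annotation, strand setting and the treatment of multi-mapping reads were not given in the sources used here. Similar or overlapping genes may therefore have lost or exchanged reads. Columns were matched to samples by description.

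The counts were tested with edgeR 4.0.16 (R 4.3.3): filterByExpr (minimum count 10), TMM factors, a two-sided quasi-likelihood F-test with group as the only term (TTR minus UT), adjusted over 12049 genes. SEs were derived from F. CPM and log2 CPM (prior count 2) were computed here. Alternatives were other scalings, DESeq2 1.42.0, limma-voom (limma 3.58.1), other filters, a replicate block and leaving out single libraries. The likelihood ratio test, robust dispersions and the DESeq2 fits with a library left out or with the block were added after seeing the data. Where DESeq2 gave no adjusted p, none was set. No pair of libraries agreed within sampling noise. Chi-square per degree of freedom was lowest across the groups, at 5.51 for UT replicate 3 with TTR replicate 1. UT replicate 2 with TTR replicate 2 gave 5.69, and UT replicate 1 with TTR replicate 3 gave 7.41. Within a group the lowest was 8.78, for UT replicates 2 and 3. The cause was not tested. The tests were tried on simulated data with changes smaller than that of Mmp9, and no result here rests on that trial.

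All 6 genes are named whatever their values; members, lists and tests were chosen with earlier results of these data known. The planned lists of other proteinases, inhibitors and cell type markers were not analysed here, as no row carries a symbol, and the planned search of protein sequences was not made.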

Additional observations from a re-analysis of the deposited data

How the results depend on the processing

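Scaling by RLE or upper quartile factors or by library totals alone, limma-voom and robust dispersions each left 1 gene called over the whole table. DESeq2 called 37, edgeR without a filter 36, edgeR on genes of 1 CPM or more in 3 libraries 3, and the likelihood ratio test 44. Leaving out 1 library gave 1 to 9 calls, with 9 without TTR replicate 1 and 2 without UT replicate 2. The causes were not tested. The prior degrees of freedom in edgeR were 5.08 with the filter and 17.5 without it.

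The log2 difference of Mmp9 passed the threshold with DESeq2 (4.17), without the filter (4.12) and with the likelihood ratio test (4.12). In none of the 6 edgeR fits that each left out 1 library did it pass (3.11 to 4.47, adjusted p 0.103 to 1.00). With DESeq2 and a library left out it ran from 3.16, the value without TTR replicate 2 that missed the threshold, to 4.51. Leaving out 1 library moved Mmp14 between -0.087 and 0.044, above 0 without UT replicate 3 (0.014) or TTR replicate 3 (0.044). Timp1 moved between -0.14 and 0.11, above 0 without UT replicate 2 (0.11) or TTR replicate 3 (0.065). The log2 ratio of Timp1 to the summed metalloproteinases moved between -0.21 and 0.079, above 0 without UT replicate 2 or TTR replicate 3. Mmp2 stayed above 0 in all 16 alternatives (0.019 to 0.22). Mmp2, Mmp14 and Timp1 passed under none of the 16.

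A replicate block in edgeR left 0 calls, and the log2 difference of Mmp9 was 4.01 (adjusted p = 0.404; DESeq2 with the block, added after seeing the data, 0.000146). Libraries of the same number are not shown to be paired: their deviations from the group means correlated at -0.38, 0.44 and -0.40 for numbers 1, 2 and 3. The 3 positive cross-group correlations match each UT library to one TTR library, by number only for number 2. Their signs are partly set by the centring on group means, which leaves each library with correlations of both signs. The labels give no such pairing of libraries, and no block was fitted on it. For Mmp3 and Mmp13 the counts were too low for a difference between the substrates to be detected at this depth.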
